A study of Mus musculus with 6 samples.

Results

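The genes described here are 10 genes that airway club cells and other airway secretory cells of the mouse are known for. They were taken by symbol from a list of names, with no threshold on their values, out of 56262 genes counted in lung tissue. They are the secretoglobins Scgb1a1, Scgb3a1 and Scgb3a2, the cytochrome P450 Cyp2f2, the BPI-fold proteins Bpifa1 and Bpifb1, the mucin Muc5b, the lectin Reg3g, the iron binder Ltf and the antibody receptor Pigr, and all 10 were found under 1 gene identifier each. Lung RNA was sequenced as paired-end reads from 3 R/R mice and 3 WT littermates, all 8 weeks of age and untreated. R/R mice carry K329R and K332R in the RNA-binding protein RBM47 on both alleles, introduced by CRISPR knock-in on the C57BL/6 background and present in every cell, and WT mice carry neither. The animals of each group were described as biological replicates, and the groups were compared as a measure of the airway share of each lung.

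Club cells are the dome-shaped secretory cells that line the mouse bronchioles. They make small secreted proteins in very large amounts, carry the cytochrome P450 enzymes that break down inhaled chemicals, and can divide to renew the ciliated cells beside them. Toward the trachea the secretory cells change in character, with more mucin, BPI-fold proteins and SCGB3A1, and submucosal glands there add mucus and antimicrobial proteins. In RNA from lung tissue, fewer cells of a type and less RNA per cell cannot be told apart.

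No member differed between R/R and WT lungs past the threshold. Of the 9 members with enough reads to test, 3 had a higher estimate in R/R lungs (Scgb1a1, Cyp2f2 and Bpifa1) and 6 a lower one (Scgb3a1, Scgb3a2, Bpifb1, Muc5b, Pigr and Ltf), and 0 were called at an adjusted p of 0.05 (edgeR quasi-likelihood test, Benjamini-Hochberg adjustment over 17120 tested genes). DESeq2 and limma-voom also called 0, and 2 members, Muc5b and Bpifb1, had an unadjusted p under 0.05. Among all tested genes 1.75% were called, 0.648% higher and 1.1% lower in R/R lungs, so a count of 0 among 9 genes lies near the background. The 2 groups overlapped for 10 of 10 members, whereas they did not overlap for 18.7% of all tested genes. The median log2 fold change of R/R against WT was -0.38 over the 9 members and 0.0045 over all tested genes. The direction of the members' median rested on 1 lung, since without WT replicate 3 it was 0.31, with 5 members higher and 4 lower.

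Library totals ranged from 16501092 to 18141067 counted read pairs, and 1 read pair corresponded to between 0.0552 and 0.0607 CPM (counts scaled to a common library size with TMM factors). A count of 0 allows a level of up to 0.166 to 0.182 CPM, the worth of 3 read pairs, which covers counting error only. Rbm47 itself was at 32.6, 33.5 and 34.1 CPM in the R/R libraries and at 28.7, 30.4 and 34.4 CPM in the WT libraries, a level that cannot show whether the substitutions are present. Libraries of 1 group differed by more than sampling noise, so none was a copy of another. By the chi-square per degree of freedom of the counts, WT replicate 3 lay about as far from R/R as from WT. The value was 7.59, 8.21 and 7.20 against R/R replicates 1, 2 and 3, and 8.31 and 7.91 against WT replicates 1 and 2. WT replicates 1 and 2 were at 13.0 to 14.3 against the R/R lungs and at 5.225 against each other. Abundant genes weigh most in this value. WT replicate 3 also stood apart in the genes described here. It held the highest level for 7 of the 9 tested members, against 14.2% of all tested genes (2433 genes), and the results for the members are therefore given with and without it. Leaving out a lung for its high values raises the estimate of every gene for which it was the highest WT lung. Calls made without WT replicate 3 are therefore descriptions.

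The 3 members that stood furthest apart in WT replicate 3, and the low Reg3g beside them, lie on different chromosomes, while Bpifa1 is a close neighbour of Bpifb1 that did not stand apart. RefSeq promoter windows (GRCm38.p6) were found for 7 of the 10 members. Those of Scgb3a1 (chr11:49663345-49663644, + strand), Bpifb1 (chr2:154190568-154190867, + strand), Reg3g (chr6:78468825-78469124, - strand) and Bpifa1 (chr2:154142630-154142929, + strand) are shown because the first 3 belong to genes that were high in the same lung and the last to the neighbour. Each runs 5′ to 3′ along its gene for 300 bases around the start site. Capitals mark matches, on either strand, to CTCAAG, a core motif of the lung regulator NKX2-1, and to TATAAA, the TATA box.
Scgb3a1: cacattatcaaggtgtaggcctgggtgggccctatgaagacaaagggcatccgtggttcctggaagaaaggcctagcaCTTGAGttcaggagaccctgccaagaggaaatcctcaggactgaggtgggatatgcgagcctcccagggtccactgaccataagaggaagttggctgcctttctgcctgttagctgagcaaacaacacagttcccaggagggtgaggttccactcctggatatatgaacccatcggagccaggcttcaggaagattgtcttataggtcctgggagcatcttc
Bpifb1: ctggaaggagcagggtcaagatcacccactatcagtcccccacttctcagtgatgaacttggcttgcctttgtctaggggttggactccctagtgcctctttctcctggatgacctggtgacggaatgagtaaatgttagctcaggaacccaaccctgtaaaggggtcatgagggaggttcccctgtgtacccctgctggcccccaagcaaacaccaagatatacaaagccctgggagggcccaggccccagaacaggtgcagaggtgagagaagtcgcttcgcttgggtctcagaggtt
Reg3g: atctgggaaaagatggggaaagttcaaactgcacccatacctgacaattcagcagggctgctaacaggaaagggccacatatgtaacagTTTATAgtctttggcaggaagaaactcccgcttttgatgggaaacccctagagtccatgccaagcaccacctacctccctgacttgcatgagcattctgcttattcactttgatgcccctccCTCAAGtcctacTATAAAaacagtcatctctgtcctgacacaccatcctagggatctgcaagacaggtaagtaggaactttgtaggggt
Bpifa1: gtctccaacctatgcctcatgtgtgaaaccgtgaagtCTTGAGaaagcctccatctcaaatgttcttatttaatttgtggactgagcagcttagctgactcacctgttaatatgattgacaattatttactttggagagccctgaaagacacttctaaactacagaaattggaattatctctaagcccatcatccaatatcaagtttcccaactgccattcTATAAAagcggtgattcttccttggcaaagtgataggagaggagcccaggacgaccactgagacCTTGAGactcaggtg
CTCAAG occurred 1 time in the Scgb3a1 window, 1 time in that of Reg3g and 2 times in that of Bpifa1, and was not in the Bpifb1 window. TATAAA occurred 2 times in the Reg3g window and 1 time in that of Bpifa1. The forkhead motif TGTTTAC was in none of these 4 windows. Over 32851 mouse promoter windows of this length, 15.9% held CTCAAG, 13.6% held TATAAA and 3.65% held TGTTTAC, so single matches of the first 2 are common. None of these motifs was in all 3 windows shown for genes high in WT replicate 3 (Scgb3a1, Bpifb1 and Reg3g), and others were not searched for. No window was found for Muc5b, which was also high there.

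Levels of different genes can be set side by side only per length, as TPM (counts divided by exon length and scaled to the same total in every library). On that scale Scgb1a1 was the first of all genes in the lung, at a mean of 83940 TPM over the 6 libraries. Cyp2f2 followed at 1950 TPM (rank 32) and Scgb3a2 at 805 TPM (rank 99), and the ranges of these 3 genes over the libraries did not overlap. Scgb3a1 had a mean of 45.3 TPM, with a range of 7.44 to 185 TPM, and overlapped with Pigr at 19.4 TPM. Pigr lay above Bpifa1 (4.30 TPM) in every library, whereas Bpifa1, Ltf (3.73 TPM), Bpifb1 (1.57 TPM), Muc5b (1.29 TPM) and Reg3g (0.399 TPM) overlapped, each with the next in the order. The annotated transcript of Scgb1a1 is short, 476 bases of exon, which raises its TPM relative to its share of reads. By reads, the 10 members took between 1.01% and 1.59% of each library, and Scgb1a1 alone made up 88.3% to 90.5% of the members' reads.

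**Figure D1:**
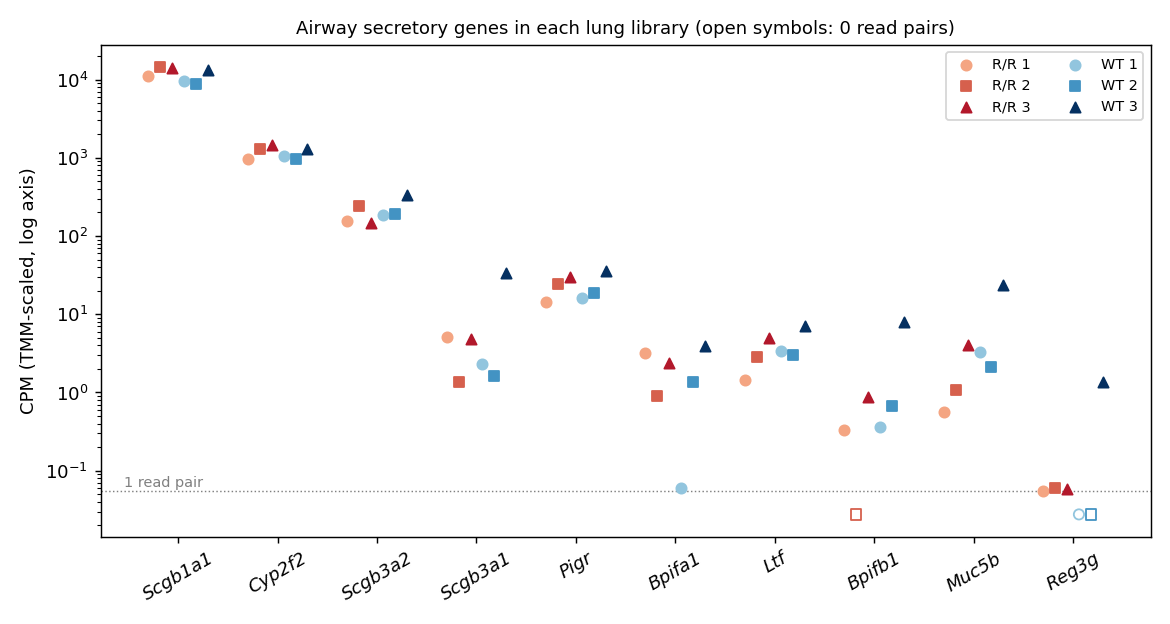
Level of each of the 10 airway secretory genes in each library, as TMM-scaled CPM on a log axis, with 3 R/R libraries in red and 3 WT libraries in blue; open symbols are libraries with 0 read pairs and the dotted line is the level of 1 read pair. WT replicate 3 (dark blue triangle) is the highest library for Scgb3a1, Bpifb1, Muc5b and Reg3g, while the groups overlap for every gene.

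The secretoglobins are small secreted proteins of the airway lining. Scgb1a1 (ENSMUSG00000024653.2, chr19:9083636-9087958, - strand), the club cell secretory protein that defines the cell type, had levels of 10990, 14490 and 14010 CPM in the lungs of R/R replicates 1, 2 and 3. Its levels in the lungs of WT replicates 1, 2 and 3 were 9659, 8901 and 13310 CPM. The lung of WT replicate 3 lay inside the R/R range, while the other WT lungs lay below all R/R lungs. R/R lungs averaged 13160 ± 1897 CPM, as compared with 10620 ± 2356 CPM for WT (SD, n = 3 each). Scgb1a1 had a log2 fold change of 0.31 ± 0.15 (SE), with an adjusted p of 0.398 by edgeR's quasi-likelihood test. Without WT replicate 3 it was 0.50 ± 0.12 with an adjusted p of 0.0356, which makes Scgb1a1 the 1 member called in that fit. That lung was singled out for its high values and was the highest WT lung for Scgb1a1, so this call is a description. In the same fit 3.56% of all 17444 tested genes were called, as compared with the 1.75% of the fit with all lungs.

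Scgb3a2 (ENSMUSG00000038791.14, chr18:43764289-43767399, + strand), a secretoglobin of bronchiolar club cells that appears early in lung development, was at 156, 245 and 149 CPM in R/R lungs and at 187, 192 and 335 CPM in WT lungs. Its highest library was WT replicate 3, at 1.37 times the next, and R/R replicate 2 lay above the other WT lungs. Its log2 fold change was -0.38 ± 0.22 (SE, edgeR adjusted p = 0.489), and -0.05 without WT replicate 3 (adjusted p = 0.911).

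Scgb3a1 (ENSMUSG00000064057.12, chr11:49663610-49665118, + strand), the secretoglobin that is known from the larger airways, was at 5.16, 1.38 and 4.89 CPM in R/R lungs and at 2.31, 1.601 and 33.3 CPM in WT lungs. These levels rest on 93, 23 and 83 read pairs in R/R and on 38, 29 and 569 in WT. The level in WT replicate 3 was 6.45 times the next library and 14.4 times the median of the other 5, and without that lung the R/R and WT lungs still overlapped. The log2 fold change of -1.69 ± 0.89 (SE, edgeR adjusted p = 0.431) turned to 0.97 without that lung (adjusted p = 0.311). The direction of the Scgb3a1 estimate thus rested on 1 lung.

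Cyp2f2 (ENSMUSG00000052974.8, chr7:27119909-27133660, + strand) encodes the cytochrome P450 through which club cells activate naphthalene. It was at 974, 1313 and 1466 CPM in R/R lungs and at 1047, 960 and 1280 CPM in WT lungs. R/R replicate 1 sat with WT replicates 1 and 2 at the low end, and WT replicate 3 sat with the other R/R lungs. Cyp2f2 had a log2 fold change of 0.19 ± 0.14 (SE, edgeR adjusted p = 0.605), and 0.31 without WT replicate 3 (adjusted p = 0.253). Its exons share 274 bases with Gm15883 on the opposite strand, a gene with 179 to 332 read pairs, and the counting did not use the strand.

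Cyp2f2 and Scgb1a1 moved together from lung to lung. There were 11.3, 11.04 and 9.55 read pairs of Scgb1a1 for each one of Cyp2f2 in R/R lungs and 9.22, 9.27 and 10.4 in WT lungs, a ratio that overlapped between the groups. Over the 6 libraries the Pearson r of their log2 CPM was 0.90, given as a description since log2 CPM of 1 library share its depth and its tissue sample. In contrast, the r of Scgb1a1 with Bpifb1 was -0.09.

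The BPI-fold proteins are secreted relatives of the bactericidal protein BPI that coat the upper airways. Bpifb1 (ENSMUSG00000027485.15, chr2:154190818-154220369, + strand), a goblet and gland cell product, was at 0.333, 0 and 0.884 CPM in R/R lungs and at 0.364, 0.662 and 7.96 CPM in WT lungs. This was 6, 0 and 15 read pairs in R/R and 6, 12 and 136 in WT, so every library but one was low. In WT replicate 3 the level was 9.01 times that of the next library, the largest such gap of all tested genes in that lung. For Bpifb1 the log2 fold change of -2.86 ± 1.09 (SE) had an unadjusted p of 0.0223 and an adjusted p of 0.248 in the edgeR fit. Without WT replicate 3 it was -0.35 (adjusted p = 0.886).

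Bpifa1 (ENSMUSG00000027483.7, chr2:154142880-154149219, + strand), an airway surfactant protein, lies 41598 bases from Bpifb1, with 1 gene, Bpifa5, between them that had no read pair in any library. Bpifa1 was at 3.22, 0.897 and 2.36 CPM in R/R lungs and at 0.0607, 1.38 and 3.98 CPM in WT lungs. The lowest library, WT replicate 1, held 1 read pair, and the highest, WT replicate 3, held 68, with the R/R lungs between them at 58, 15 and 40. Here WT replicate 3 was only 1.24 times R/R replicate 1. Bpifa1 had a log2 fold change of 0.26 ± 0.72 (SE, edgeR adjusted p = 0.922). It was -0.16 without R/R replicate 1, -0.30 without WT replicate 1 and 1.54 without WT replicate 3, with adjusted p values from 0.297 to 0.987 over all alternatives.

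Muc5b (ENSMUSG00000066108.7, chr7:141839070-141873084, + strand) encodes the gel-forming mucin that carries out most of mucus clearance. It was at 0.555, 1.08 and 4.06 CPM in R/R lungs and at 3.28, 2.097 and 23.5 CPM in WT lungs, from 10, 18 and 69 and from 54, 38 and 401 read pairs. Again WT replicate 3 was the highest, at 5.78 times the next library, R/R replicate 3, and the other WT lungs lay within the R/R range. The Muc5b log2 fold change of -2.34 ± 0.85 (SE) had an unadjusted p of 0.0175 and an adjusted p of 0.223 by edgeR. Without WT replicate 3 it was -0.51 (adjusted p = 0.739).

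Reg3g (ENSMUSG00000030017.2, chr6:78466269-78468872, - strand) encodes a secreted lectin that kills Gram-positive bacteria. It had 1 read pair in each of the 3 R/R libraries, 0 in WT replicates 1 and 2, and 23 in WT replicate 3, where its level was 1.35 CPM. Only WT replicate 3 was above the limit that a count of 0 allows, so Reg3g did not pass the filter on low counts and was not tested.

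Ltf (ENSMUSG00000032496.7, chr9:111019271-111042767, + strand) encodes lactoferrin, a protein that withholds iron from bacteria and is made by gland cells and stored in neutrophil granules. It was at 1.44, 2.87 and 5.01 CPM in R/R lungs and at 3.40, 3.04 and 7.14 CPM in WT lungs. The highest library was WT replicate 3, but R/R replicate 3 lay close behind it and the groups overlapped. Its log2 fold change was -0.55 ± 0.41 (SE, edgeR adjusted p = 0.619), and -0.06 without WT replicate 3 (adjusted p = 0.959). Of genes for other proteins of neutrophil granules, Camp and Ngp, too low to test with all libraries, were highest in WT replicate 1, at 0.486 and 1.09 CPM. Mmp8 and Mmp9 were also highest there, at 6.74 and 29.4 CPM. They were at 5.21 and 27.7 CPM in WT replicate 3 and at most at 2.65 and 15.1 CPM in the other lungs. Lcn2, which epithelium also makes, was highest in WT replicate 3, as Ltf was. The source of Ltf in that lung was not tested.

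Pigr (ENSMUSG00000026417.13, chr1:130826684-130852249, + strand) encodes the receptor that carries polymeric IgA through the epithelium into the airway. It was at 14.5, 24.2 and 30.3 CPM in R/R lungs and at 16.3, 18.8 and 35.3 CPM in WT lungs. The lowest library was R/R replicate 1 and the highest WT replicate 3, and the means were 23.0 ± 7.96 and 23.5 ± 10.3 CPM (SD, n = 3 each). Pigr had a log2 fold change of -0.03 ± 0.28 (SE, edgeR adjusted p = 0.980). It turned to 0.22 without R/R replicate 1 and to 0.38 without WT replicate 3, with adjusted p values of 0.803 and 0.434.

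**Figure D2:**
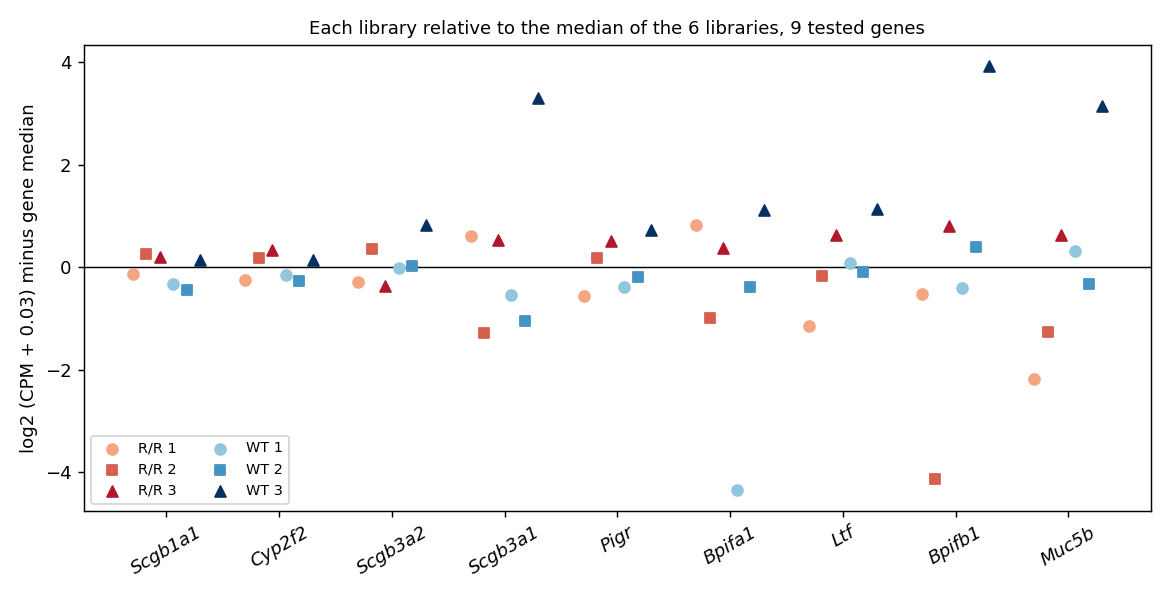
Level of the 9 tested members in each library relative to the gene's median over the 6 libraries, as log2 (CPM + 0.03); the horizontal line is the median. WT replicate 3 lies above the median for all 9 genes and furthest for Bpifb1, Scgb3a1 and Muc5b, whereas the libraries spread little for Scgb1a1 and Cyp2f2, and the lowest points are libraries with 0 (Bpifb1) or 1 (Bpifa1) read pair.

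The 6 members with the fewest reads, by mean CPM and thus with no correction for length, were Scgb3a1, Bpifa1, Bpifb1, Muc5b, Reg3g and Ltf. Together they summed to 10.8, 6.28 and 17.3 CPM in R/R lungs and to 9.41, 8.78 and 77.2 CPM in WT lungs. WT replicate 3 was far above the rest, and the other WT lungs lay within the R/R range. The sum over all 10 members, which Scgb1a1 dominates, came to 12140, 16080 and 15670 CPM in R/R lungs and to 10920, 10080 and 15030 CPM in WT lungs. On this sum WT replicate 3 lay among the R/R lungs. The log2 ratio of the sums was 0.30, as compared with a spread of 0.27 between replicates (pooled SD of log2 sums), and it was given no test. It lay between 0.18 (without WT replicate 2) and 0.47 (without WT replicate 3) when any 1 library was left out. The median over genes of the log2 ratio, which weighs scarce and abundant members equally, had the opposite sign, -0.36 with all libraries, and the edgeR median named above turned to 0.31 without WT replicate 3.

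A level at least 2 times that of the next library was found in WT replicate 3 for 12 of the 17120 tested genes (0.0701%). Bpifb1, Scgb3a1 and Muc5b were the 3 with the largest gaps. The other 5 libraries had between 3 and 19 such genes each, and 0 of these were members. Of the other 9 genes high in WT replicate 3, Lypd2 and Sult1d1 are club cell genes, and they are named here because their values had been seen. Lypd2 was at 7.16, 9.27 and 9.54 CPM in R/R lungs and at 7.77, 7.78 and 24.5 CPM in WT lungs. Sult1d1, a sulfotransferase gene, was at 3.57 CPM in WT replicate 3 and at 0.444 to 1.36 CPM elsewhere.

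**Figure D3:**
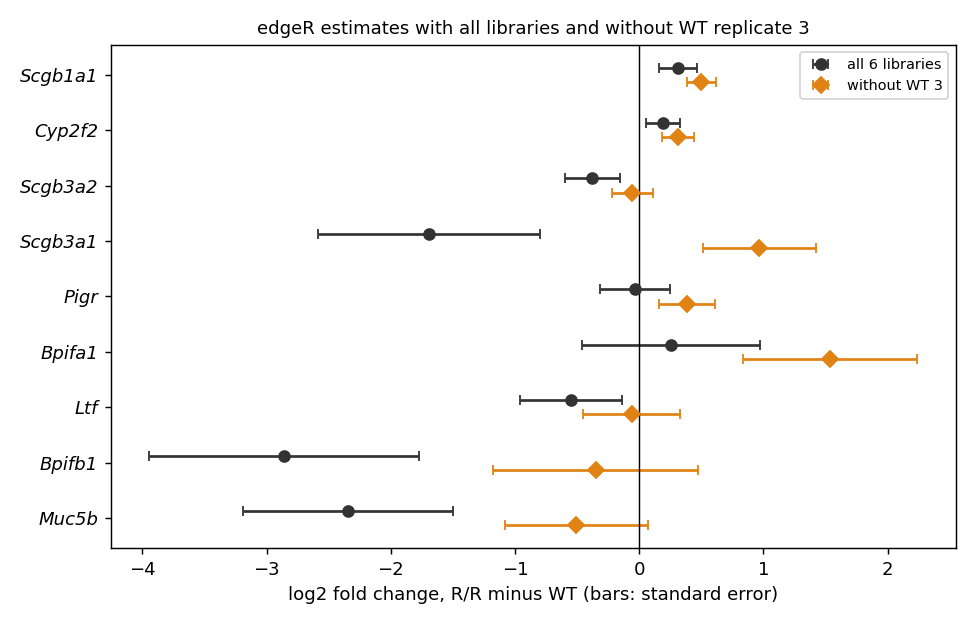
Log2 fold change of R/R over WT lungs for the 9 tested members with all 6 libraries (dark circles) and without WT replicate 3 (orange diamonds), from the edgeR fit; bars are standard errors. Estimates for Bpifb1, Muc5b and Scgb3a1 run from -2.86 to -1.69 with all libraries, and from -0.51 to 0.97 without that lung, and Scgb1a1 at 0.50 is the 1 member called without it.

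Other genes of club cells were read from a list of 24, all of which were tested. In R/R lungs 18 had a higher and 6 a lower estimate, with a median log2 fold change of 0.15, and 7 did not overlap between the groups, against the 18.7% of all tested genes. With WT replicate 3 left out there were 22 higher and 2 lower, with a median of 0.27. Gsta3, a glutathione transferase gene, was at 101, 122 and 82.6 CPM in R/R lungs and at 60.3, 62.0 and 80.0 CPM in WT lungs, and was called higher (log2 fold change 0.59 ± 0.13, edgeR adjusted p = 0.0491). Kcnk2, a potassium channel gene, was at 31.9, 31.3 and 30.4 CPM in R/R and at 20.9, 23.6 and 25.8 CPM in WT lungs, and was called higher as well (0.41 ± 0.09, edgeR adjusted p = 0.0431). For both genes every R/R lung lay above every WT lung. Both calls are narrow. Kcnk2 was no longer called when any 1 of the 3 R/R lungs or WT replicate 1 or 2 was left out (adjusted p 0.0874 to 0.170). Gsta3 was not called without R/R replicate 1 or 2 or WT replicate 1 or 2 (0.104 to 0.198). Nor was it called with limma-voom (0.0571) or with a filter of 1 CPM in 3 libraries (0.0544). Both were called without WT replicate 3, Kcnk2 at 0.48 and Gsta3 at 0.73 (edgeR adjusted p 0.0152 and 0.00886). Cbr2, the abundant carbonyl reductase of club cells, was at 0.37 ± 0.12 on the log2 scale (adjusted p = 0.154), and at 0.49 without WT replicate 3 (adjusted p = 0.0190). Without WT replicate 3 there were 7 of the 24 called higher and 1, Itm2a, called lower, where 3.56% of all genes tested in that fit were called. That lung was singled out for its high values and was the highest WT lung for the sum of this list. These calls are therefore a description, for which that share is no like background. Without any other 1 library 0 or 1 of the 24 were called.

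Summed over this list, levels came to 5810, 6991 and 6612 CPM in R/R lungs and to 5138, 4855 and 6116 CPM in WT lungs. Here WT replicate 3 was the highest WT lung and R/R replicate 1 the lowest R/R lung, the same order as for Scgb1a1. Cbr2 was a large part of this sum, at 2247, 2843 and 2844 CPM in R/R lungs and at 1852, 1898 and 2382 CPM in WT lungs. Single genes did not all follow that order, and 9 of the 24 were highest in WT replicate 3. Ciliated cell markers, from the cells that sit beside club cells, summed to 1844, 2031 and 1960 CPM in R/R and to 1661, 1706 and 1956 CPM in WT lungs, with 10 of 15 higher, 5 lower and 0 called by edgeR, DESeq2 or limma-voom (1 at an unadjusted edgeR p under 0.05). The lipid-binding protein gene Sec14l3 made up 69.0% to 75.2% of this sum. The other 14 markers summed to 458, 539 and 519 CPM in R/R lungs and to 442, 448 and 607 CPM in WT lungs, with the highest and the lowest library both WT. With WT replicate 3 left out, 12 of 15 were higher, and the median of the log2 fold changes was 0.23 as compared with 0.05. Foxj1, the regulator of motile cilia, was at 42.8, 58.9 and 56.3 CPM in R/R lungs and at 48.0, 48.3 and 66.7 CPM in WT lungs.

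Alveolar type 2 markers were also at a higher sum in R/R lungs, 28600, 27670 and 27130 CPM against 21480, 23860 and 27120 CPM in WT lungs, with 11 of 12 higher and 0 called by edgeR (4 at an unadjusted p under 0.05). DESeq2 called 1 of them, Sftpc, higher, and limma-voom called 0. Sftpc, the surfactant protein that marks these cells, had a log2 fold change of 0.25 ± 0.10 (edgeR adjusted p = 0.271). On leaving out WT replicate 3, 12 of 12 were higher, their median moved from 0.15 to 0.24, and the surfactant protein gene Sftpa1 was called (0.39, edgeR adjusted p = 0.0183), while Sftpc was at 0.32 (adjusted p = 0.0939). The highest WT lung was replicate 3 for club, ciliated and alveolar type 2 markers alike, and whether these values share a source with those of the secretory genes was not tested. Alveolar type 1 markers summed to 6146 to 6872 CPM in R/R and 6485 to 6835 CPM in WT lungs, with 5 of 9 higher and 4 lower, and 1, the water channel gene Aqp5, was called higher by edgeR (0.27 ± 0.06, adjusted p = 0.0459). DESeq2 called 2, Aqp5 and Hopx, higher, and limma-voom called Aqp5 alone. The call of Aqp5 was lost without any 1 R/R lung and without WT replicate 1 or 2, with adjusted p values of 0.106 to 0.198, and was kept without WT replicate 3 (0.29, adjusted p = 0.0298).

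**Figure D4:**
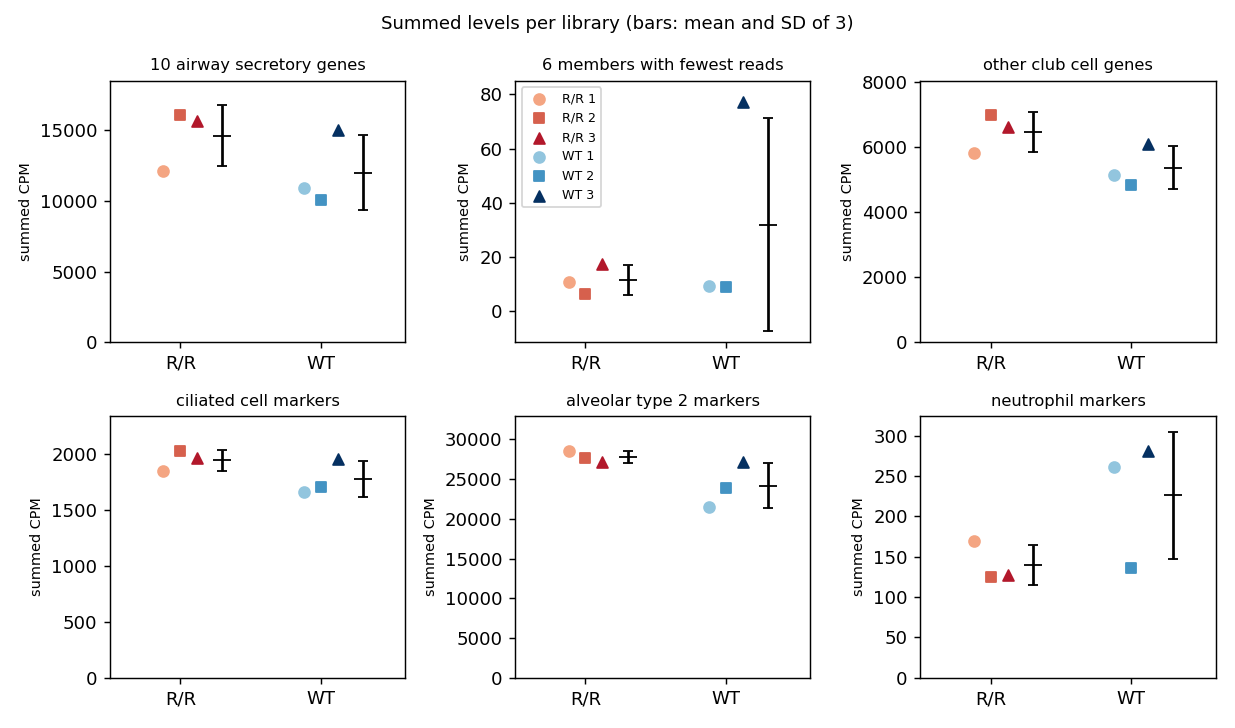
Summed TMM-scaled CPM of 6 gene groups in each library, with the mean and SD of 3 libraries beside each genotype. The 6 members with the fewest reads (Scgb3a1, Bpifa1, Bpifb1, Muc5b, Reg3g and Ltf) reach 77.2 CPM in WT replicate 3 and at most 17.3 CPM elsewhere, while the sum of all 10 members, other club cell genes and ciliated cell markers overlap between R/R and WT.

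Goblet and mucus genes were mostly scarce, and 7 of 15 could be tested, 4 higher and 3 lower. Muc5ac, the mucin of goblet cells, was at 0.418 to 0.707 CPM in R/R lungs and at 0.486, 0.552 and 1.70 CPM in WT lungs, too low to test, and was again highest in WT replicate 3. Creb3l1, which encodes a transcription factor of secretory stress that other lung cells also make, was the 1 gene called by edgeR, at 27.9, 21.5 and 25.3 CPM in R/R lungs and at 36.3, 31.7 and 34.4 CPM in WT lungs (log2 fold change -0.45 ± 0.10, edgeR adjusted p = 0.0470). It was no longer called without R/R replicate 2 or 3 or any 1 WT lung (adjusted p 0.0526 to 0.185). Nor was it called with limma-voom (0.0507) or without TMM factors (0.05075). DESeq2 called 2 genes with all libraries, Creb3l1 lower and the membrane mucin gene Muc16 higher, and limma-voom called 0. In the edgeR fit Muc16 was at 1.02 ± 0.29 with all libraries (adjusted p = 0.115) and was called without WT replicate 3 (1.40, adjusted p = 0.0127).

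Of the 20 secretoglobin and BPI-fold family genes, members included, 7 had no read pair in any library and 8 were tested, with 0 called by edgeR, DESeq2 or limma-voom (1, Bpifb1, at an unadjusted edgeR p under 0.05). The secretoglobin Scgb1c1 was at 5.16, 6.34 and 5.95 CPM in R/R lungs and at 4.37, 4.75 and 5.56 CPM in WT lungs. Bpifb5, a BPI-fold gene, was at 5.86 to 6.55 CPM in R/R lungs and at 4.37 to 6.68 CPM in WT lungs. Neither stood apart in WT replicate 3.

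Of 17 regulators of airway epithelium 10 were higher, 7 lower and 0 called, although 4 had an unadjusted p under 0.05 in the edgeR fit. DESeq2 called 2, Notch3 and Jag2, lower, and limma-voom called 0. Nkx2-1, whose protein switches on secretoglobin and surfactant genes, was at 266, 285 and 308 CPM in R/R lungs and at 254, 270 and 260 CPM in WT lungs (log2 fold change 0.13 ± 0.07, edgeR adjusted p = 0.400). Foxa2, its forkhead partner, was at 50.3 to 52.1 CPM in R/R and at 46.8 to 56.0 CPM in WT lungs. Spdef, the regulator of goblet cells, was at 1.20 to 2.11 CPM in R/R and 1.09 to 1.76 CPM in WT lungs, with WT replicate 3 inside the R/R range. The Notch receptor gene Notch3 (-0.27, adjusted p = 0.0558) and the ligand gene Jag2 (-0.43, adjusted p = 0.106) were called lower without WT replicate 3, at adjusted p values of 0.0309 and 0.0152.

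Among 17 mucosal defense genes 8 were tested, 5 higher and 3 lower, and 0 were called by edgeR, DESeq2 or limma-voom, with 0 at an unadjusted edgeR p under 0.05. Wfdc2, an abundant protease inhibitor of airway epithelium, was at 361, 384 and 391 CPM in R/R lungs and at 280, 305 and 408 CPM in WT lungs. Its highest library was WT replicate 3, and without that lung Wfdc2 was called higher (log2 fold change 0.37, adjusted p = 0.0127) where with it the estimate was 0.20 (adjusted p = 0.485). Lcn2, which sequesters bacterial iron carriers, was at 48.5 to 63.2 CPM in R/R lungs and at 51.4, 59.1 and 81.0 CPM in WT lungs. Reg3b, the close relative of Reg3g, had no read pair in any library.

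Of the IgA partners of Pigr, Igha and Jchain had another order over the lungs than Pigr. Among the 6 tested partners 3 were highest in WT replicate 3, as Pigr was. These were Mzb1, Ccl28 and Ccr10, at 1.35, 1.52 and 1.93 CPM in that lung. Igha, the constant region of IgA, was at 24.1, 37.0 and 6.18 CPM in R/R lungs and at 27.7, 99.0 and 78.6 CPM in WT lungs (log2 fold change -1.61 ± 0.49, edgeR adjusted p = 0.148). Jchain, which joins IgA into the polymers that Pigr carries, was at 4.83, 7.83 and 1.65 CPM in R/R lungs and at 5.71, 16.4 and 14.9 CPM in WT lungs (-1.37 ± 0.44, adjusted p = 0.164). Igha was at -1.50 and Jchain at -1.22 without WT replicate 3 (edgeR adjusted p 0.159 and 0.206). Both were lowest in R/R replicate 3, the R/R lung in which Pigr was highest. Of 6 tested partner genes 1 was higher, 5 were lower and 0 were called by edgeR, DESeq2 or limma-voom, with 2, Igha and Jchain, at an unadjusted edgeR p under 0.05.

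Other tissues that a dissection could bring along were read in the same libraries. Airway smooth muscle markers summed to 532, 604 and 629 CPM in R/R lungs and to 612, 549 and 743 CPM in WT lungs, and 6 of the 8 genes were highest in WT replicate 3. With that lung 2 of 8 had a higher estimate in R/R, and without it 4 of 8. Cnn1, a contractile protein gene of smooth muscle, was at 26.0 to 33.0 CPM in R/R lungs and at 31.0, 24.9 and 60.4 CPM in WT lungs. Hhip, a hedgehog inhibitor of airway muscle and other stromal cells, was called higher in R/R lungs (0.41 ± 0.07, edgeR adjusted p = 0.0169), and not without R/R replicate 2 or WT replicate 1 or 2 (adjusted p 0.0551 to 0.0653). It was still called without WT replicate 3 (0.39, adjusted p = 0.0192). DESeq2 called Hhip higher and Des lower, and limma-voom called Hhip alone. In the edgeR fit Des was at -0.25 ± 0.06 (adjusted p = 0.0668). Cartilage markers summed to 94.9 to 117 CPM, nearly all of it Matn4, and WT replicate 3 had the highest level of 0 of the 3 tested genes. The cartilage genes Acan, Matn1 and Col9a1 had no read pair in any library. Col2a1, too low to test, had 1, 1 and 0 read pairs in R/R lungs and 4, 5 and 8 in WT lungs, the most in WT replicate 3. Comp, also too low to test, was highest in WT replicate 2. Basal cell markers, which the trachea and large bronchi carry, summed to 2.69 to 4.53 CPM, and Krt5 was at or below 0.110 CPM everywhere. Of the scarce basal keratin genes, Krt15 was at 0.1196 to 0.333 CPM in R/R lungs and at 0.122, 0.221 and 1.05 CPM in WT lungs, and Krt14 at 0.0598 to 0.389 CPM in R/R lungs and at 0.0607, 0 and 0.585 CPM in WT lungs. Both were too low to test and highest in WT replicate 3, where they had 18 and 10 read pairs. Markers of upper airway, glands and esophagus summed to 2.87 to 4.65 CPM in R/R and 2.73 to 4.92 CPM in WT lungs, with 6 of 13 genes at 0 in all libraries. The highest of these sums was in WT replicate 3. Neuroendocrine markers summed to 6.62 to 7.62 CPM over all libraries. The part of airway muscle or of any of these tissues in the levels of the secretory genes was not tested.

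Neutrophil markers summed to 169, 125 and 127 CPM in R/R lungs and to 261, 136 and 282 CPM in WT lungs, with 7 of 7 tested genes lower in R/R lungs, a median log2 fold change of -0.84, 0 called by edgeR and 6 at an unadjusted p under 0.05. DESeq2 called 2 of them lower, and limma-voom called 0. Of 8 genes tested without WT replicate 3, 8 were lower, with a median of -0.57 and 0 called by edgeR. S100a8, a calcium-binding protein gene of neutrophils, was at 17.8, 9.69 and 9.54 CPM in R/R lungs and at 40.1, 9.49 and 35.5 CPM in WT lungs. WT replicates 1 and 3 were both high in S100a8. Of the 7 tested genes 3 were highest in WT replicate 3, namely Lcn2, Csf3r and Retnlg, and Retnlg, a resistin-like gene of neutrophils, was at 5.12 to 6.82 CPM in R/R lungs and at 9.23, 7.78 and 15.3 CPM in WT lungs. The part of neutrophils in the levels of the secretory genes was not tested.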

How the data were processed

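Total RNA of lung tissue was taken from 3 R/R and 3 WT mice, with groups and replicate numbers from the sample labels. The supplement does not say which part of the lung was used. Alignment by the authors used HISAT2 2.1.0 and the mm10 (GRCm38) genome, and the raw counts they deposited were made per gene with featureCounts 2.0.1 over exons of GENCODE M25. Per the file headers the counting used no strand option and left out pairs that map to several places or genes, so overlapping genes on opposite strands cannot be separated. The labels name a column kit for RNA extraction and the supplement another reagent. The submitters' processing notes name DESeq2 and the supplement edgeR for the authors' own tests, which were not used here. The deposited counts were not normalized, and 1 of the 6 columns was recorded under another unit word only because the table opens with a comment line. No per-sample column (0) was left out.

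Symbols and coordinates came from GENCODE M21 by gene identifier, with 55141 of 56262 matched. Calculations used R 4.3.3. Genes kept by filterByExpr (minimum count 10, minimum total 15) were given TMM factors and tested with the quasi-likelihood fit of edgeR 4.0.16 (glmQLFit, glmQLFTest), with all 6 libraries and genotype as the only term. A gene was called where its p, adjusted after Benjamini and Hochberg over all genes tested, was below 0.05. Log2 CPM for deviations and correlations used a prior count of 0.5. The tests were tried on simulated counts. Alternatives were DESeq2 1.42.0, voom of limma 3.58.1, other scalings and filters, the replicate number as a block and each library left out. All fits, also those that leave an arm with fewer lungs, pool the spread over both groups and moderate it across genes.

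The members and gene lists were chosen with earlier results of these data known. Named genes are the 10 members, from each list the called genes and otherwise defining or abundant ones, at most 5, and the 8 tested genes most like the members (mean log2 CPM 1 or more). Genes named because of their level in WT replicate 3 or their call without it (Lypd2, Sult1d1, Muc16, Itm2a, Notch3, Jag2, Sftpa1, Krt14, Krt15, Retnlg, Csf3r) or by another tool (Hopx), and Sec14l3 for its share of a sum, were chosen after their values were seen, as was the analysis of the gene lists without WT replicate 3. Mmp8, Mmp9, Col2a1, Comp, Mzb1, Ccl28, Ccr10 and Des were also named after their values were seen. Replicate numbers were not taken to pair the lungs, since deviations of same-numbered lungs had correlations of -0.0139, -0.0036 and -0.0148. P-values measure the spread between these 3 lungs per group. Precision of single counts covers counting error only.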

Additional observations from a re-analysis of the deposited data

How the results depend on the processing

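The count of called members was 0 with DESeq2, limma-voom, RLE factors, upper-quartile factors, no TMM and a filter of 1 CPM in 3 libraries, under which 8 members were tested. It was 5 with no filter beyond 1 count (Scgb1a1 higher, Scgb3a1, Scgb3a2, Bpifb1 and Muc5b lower), a fit that called 1109 genes in all against 300. With the replicate block it was 2 (Bpifb1 at -2.62, adjusted p = 0.0386, and Muc5b at -2.16, adjusted p = 0.00324, by edgeR), with 446 genes called in all. Leaving out 1 library gave 0 to 1 called members and 65 to 621 called genes. The cause of these changes was not tested. The log2 ratio of the summed level, 0.30, was -0.36 as a median over genes, 0.08 without Scgb1a1, 0.16 without the 3 secretoglobins, 0.26 per length and 0.18 to 0.47 with 1 library left out. Direction turned for Bpifa1 without R/R replicate 1 (-0.16) or WT replicate 1 (-0.30), for Pigr without R/R replicate 1 (0.22) or WT replicate 3 (0.38) and for Scgb3a1 without WT replicate 3 (0.97). With 1 library left out these estimates ran from -0.30 to 1.54 for Bpifa1, from -0.28 to 0.38 for Pigr and from -2.22 to 0.97 for Scgb3a1. Of the other single-member estimates under these alternatives, 112 kept their direction and their side of the threshold and 8 passed it with the same direction. The other club cell genes had 2 calls of 300 in all, and 7 of 541 with DESeq2, 1 of 251 with limma-voom, 10 of 1109 with no filter, 1 of 271 with the 1 CPM filter, 5 of 446 with the replicate block and 0 to 8 with 1 library left out. Members with few read pairs limit what can be seen: Reg3g could not be tested, and Bpifb1 and Bpifa1 had libraries with 0 or 1 read pair.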

Other observations

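The genes whose levels over the 6 libraries were most like the mean deviation of the tested members were Tnk1, Clec16a, Ccpg1os, Cntrl, Bbs1, Tldc1, Zfp428 and Zfp750, with a Pearson r of 0.96 to 0.99 over 6 libraries that share 1 high library. The mean deviation of the members was -0.40, -0.75 and 0.42 on the log2 scale in the R/R lungs and -0.63, -0.25 and 1.62 in the WT lungs. Tnk1, a tyrosine kinase gene, was at 9.32, 8.73 and 9.95 CPM in R/R lungs and at 8.99, 9.27 and 11.1 CPM in WT lungs, and Zfp750, a zinc finger gene, at 1.61 to 2.59 and at 1.71 to 3.16 CPM.

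Besides Lypd2 and Sult1d1, the genes other than members that were at least 2 times higher in WT replicate 3 than in any other library were Ighv7-1, Igkv15-103, Ifit1bl1, Gm15728, Atp6v1b1, Retnla and Ifit1bl2, named here after their values were seen. Atp6v1b1, a proton pump subunit gene of acid-secreting cells, was at 1.11, 1.38 and 1.65 CPM in R/R lungs and at 2.004, 1.99 and 4.39 CPM in WT lungs (edgeR adjusted p = 0.201), so that every WT lung lay above every R/R lung, as the groups did not overlap for 18.7% of all tested genes. Retnla, a secreted resistin-like protein gene, was at 6.99, 14.9 and 13.8 CPM in R/R lungs and at 12.7, 7.01 and 30.6 CPM in WT lungs. Tff2, a trefoil peptide gene of mucous cells that was too low to test, was at 0, 0 and 0.236 CPM in R/R lungs and at 0, 0.110 and 1.76 CPM in WT lungs, again highest in WT replicate 3.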
